A study of Mus musculus with 8 samples.

Results

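Heat shock proteins and molecular chaperones were followed in mouse renal proximal tubular cells after cisplatin. The set was chosen by gene symbol alone: rows of the deposited table of linear RNA whose symbol names an HSP70, HSP90, HSP110, small heat shock, mitochondrial chaperonin, J protein (Dnaja, Dnajb, Dnajc), TRiC (Cct), BAG (Bag1 to Bag6) or heat shock factor (Hsf1, Hsf2) gene. This gave 81 rows of 21874 in the table, of which 70 reached at least 1 FPKM (fragments per kilobase of transcript, scaled to the mapped fragments of the library) in 2 or more of 8 libraries and were tested. The 11 rows below that filter were Cct6b, Cct8l1, Hspb3, Hspb7, Hspb9, Dnajb3, Dnajb7, Dnajb8, Dnajb13, Dnajc5b and Dnajc5g, of which Hspb3, Dnajc5b and Dnajc5g were listed at 0 in every library.

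Per the labels, male C57BL/6 mice received cisplatin by intraperitoneal injection at 30 mg/kg to cause acute kidney injury, and tubular cells of the proximal segment were prepared from the renal cortex. There were 2 libraries at each of 0, 24, 48 and 72 h, 8 in all. The labels give every mouse the same strain and sex, attach the injection text to the 0 h samples as well, and name neither a vehicle nor an age, and the 0 h group serves as the baseline here. The design text calls the libraries of a time point biological duplicates without tying them to animals, so the p-values measure only the spread between these libraries. All samples were total RNA depleted of ribosomal RNA.

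Chaperones bind unfolded or partly folded proteins and keep them from aggregating. HSP70 proteins do so in cycles of ATP hydrolysis that J proteins start and BAG and HSP110 proteins end, HSP90 takes over late folding steps, small heat shock proteins hold unfolded clients without ATP, and the ring-shaped chaperonins (TRiC in the cytosol, Hspd1 with Hspe1 in mitochondria) enclose them. In the heat shock response the transcription factor HSF1 is released by unfolded proteins and binds heat shock elements, inverted repeats of GAA, in the promoters of the inducible cytosolic members, while unfolded proteins in the endoplasmic reticulum (ER) act on a separate set through the ER stress response element. HSP70 induction is a known feature of the injured tubule.

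Promoter stretches of 6 genes are shown so that the heat shock and ER stress elements can be read in genes whose levels are described below. They are the 150 bases just before the annotated start, 5′ to 3′ on the gene's strand, from RefSeq GRCm38.p6, with capitals marking motif matches found on either strand. In Hspa1b (chr17:34959239-34959388, minus strand), its near copy Hspa1a (chr17:34972157-34972306, minus strand) and Hspb1 (chr5:135887769-135887918, plus strand) the capitals mark a pair of inverted GAA units. In Hspe1 (chr1:55087998-55088147, plus strand) they mark the span of 2 overlapping matches to 3 units, and in Hspa5 (chr2:34771940-34772089, plus strand) and Hsp90b1 (chr10:86705445-86705594, minus strand) the ER stress response element.
Hspa1b: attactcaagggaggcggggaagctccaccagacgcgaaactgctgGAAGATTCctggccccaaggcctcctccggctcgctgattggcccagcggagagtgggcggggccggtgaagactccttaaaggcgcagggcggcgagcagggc
Hspa1a: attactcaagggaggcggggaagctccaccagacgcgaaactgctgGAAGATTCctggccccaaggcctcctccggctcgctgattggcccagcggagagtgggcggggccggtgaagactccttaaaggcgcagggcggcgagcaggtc
Hspb1: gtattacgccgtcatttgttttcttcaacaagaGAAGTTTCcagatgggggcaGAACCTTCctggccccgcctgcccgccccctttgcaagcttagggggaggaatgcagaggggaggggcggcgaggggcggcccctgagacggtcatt
Hspe1: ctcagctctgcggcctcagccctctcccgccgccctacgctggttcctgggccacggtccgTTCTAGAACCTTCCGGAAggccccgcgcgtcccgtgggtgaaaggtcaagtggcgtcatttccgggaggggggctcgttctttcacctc
Hspa5: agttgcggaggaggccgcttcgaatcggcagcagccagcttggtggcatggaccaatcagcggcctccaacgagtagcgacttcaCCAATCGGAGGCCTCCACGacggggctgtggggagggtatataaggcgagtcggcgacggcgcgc
Hsp90b1: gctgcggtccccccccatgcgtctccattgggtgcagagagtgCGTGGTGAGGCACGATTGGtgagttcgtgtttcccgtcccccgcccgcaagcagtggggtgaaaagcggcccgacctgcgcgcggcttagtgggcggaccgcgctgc

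The search covered the 250 bases before each start, with the letters GAANNTTC or TTCNNGAA for the pair, GAA, TTC and GAA with 2 bases between neighbours for 3 units, and CCAAT and CCACG 9 bases apart for the ER element, each on both strands, and a 3-unit match always contains pairs. A window was found for 66 members. The pair occurred in 16 of them (24.2%) and in 14.5% of all 27025 genes with a window. The 3-unit element occurred in Dnajb6, Hspd1 and Hspe1 (4.55% of members, 0.514% of all genes), and the ER element in Dnajc3, Hsp90b1 and Hspa5 (4.55% of members, 0.13% of all genes). Hspd1 and Hspe1 are transcribed from a shared promoter, so their matches are the same bases read on either strand. Hsp90b1 has a further match upstream of the printed bases. Upstream of the start, Hspa1a and Hspa1b were identical at 247 of 250 bases. A match describes these letters only, and factor binding was not measured.

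Cisplatin was followed by higher RNA of several inducible cytosolic chaperones at 24, 48 and 72 h, among them the Hspa1b row, Hsp90aa1, Hspb1 and Dnajb1. Hsph1 was higher at 24 h but lower at 72 h, and Dnaja1 passed the test at no time. All 6 tested subunits of the TRiC ring were higher at 24 h, and 4 of 6 at 48 and 72 h. The constitutive HSP70 Hspa8 and, from 48 h on, most mitochondrial and most ER members had lower RNA. At 24 h, 25 of the 70 tested members were higher and 20 lower than at 0 h, 64.3% in all, against 65.8% of the 10757 rows tested across the table (25.8% higher, 40% lower; limma, Benjamini-Hochberg adjusted p under 0.05 over all rows). At 48 h, 21 were higher and 28 lower, 70% against a background of 70.5% (28.5% higher, 42.1% lower). At 72 h, 23 were higher and 24 lower, 67.1% against 70% (37.6% higher, 32.4% lower). The share of members that changed was thus near that of all rows at each time, and the members stood out neither as more nor as less changed. In these bulk samples fewer cells of a type and less RNA per cell cannot be told apart.

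The median log2 fold change of the members was 0.05, -0.02 and 0.02 at 24, 48 and 72 h over 0 h, beside -0.12, -0.13 and 0.07 for all rows tested. The split between directions depended on scaling: with all libraries scaled to a common median it was 28 higher and 16 lower at 24 h, then 28 and 24 at 48 h and finally 21 and 27 at 72 h, with quantile normalization 32 and 15, 30 and 22, and 25 and 25, and with equal totals apart from mitochondrially encoded rows 34 and 13, 36 and 19, and 30 and 21. That last scaling moved the median of all rows to 0.06, 0.22 and 0.30 at the 3 times. Changes of at least 2-fold were seen in 9 members higher and 5 lower at 24 h (background 5.44% and 9.31%), 7 and 9 at 48 h (7.28% and 14.6%), and 6 and 11 at 72 h (11.8% and 11.2%). The 2 later libraries did not overlap with the 2 at 0 h for 54, 58 and 56 of the 70 members at 24, 48 and 72 h, where 81.8%, 86.4% and 86.6% of all rows did not overlap.

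**Figure D1:**
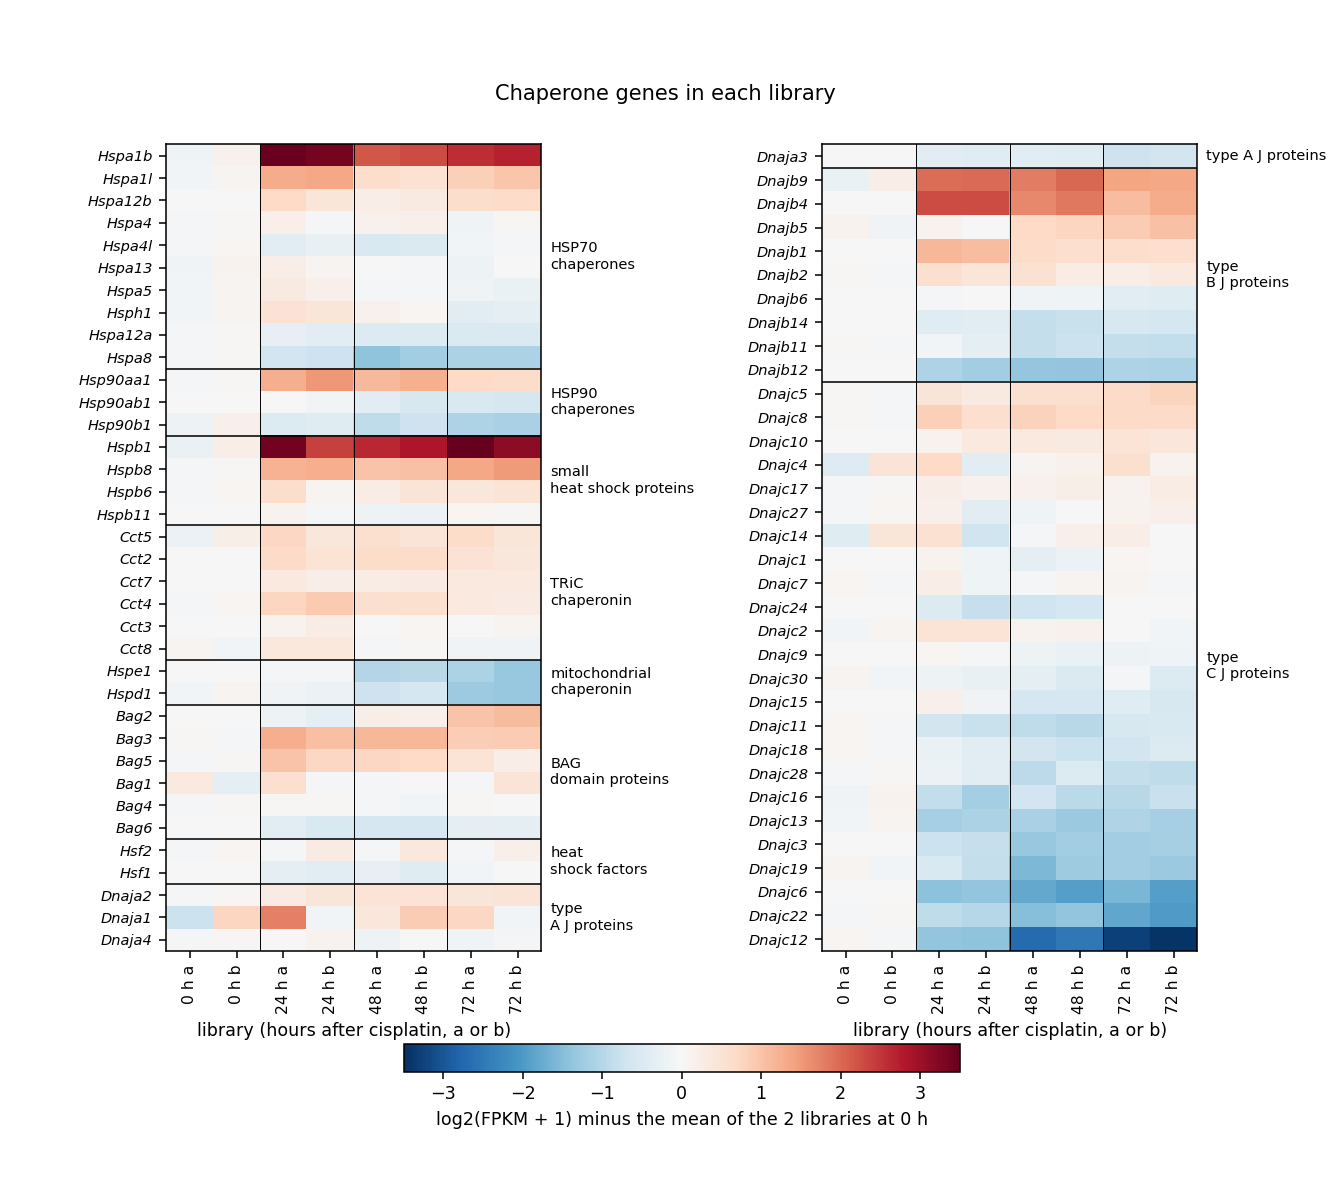
Each row is 1 of the 70 tested chaperone genes, grouped by family, and each column 1 library (0, 24, 48 and 72 h after cisplatin, libraries a and b); colour gives log2(FPKM + 1) minus the mean of the 2 libraries at 0 h. Hspa1b and Hspb1 are the darkest red rows from 24 h on, Dnajc12 is the darkest blue at 72 h, and Dnaja1 differs between libraries of the same time.

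By pattern over time, 20 members were higher at all 3 times and 16 lower at all 3. Another 6 were lower at 48 and 72 h without passing the test at 24 h (Dnajb11, Dnajc15, Dnajc28, Hsp90ab1, Hspd1 and Hspe1), and 13 passed at no time. Only Hsph1 and Bag2 passed the test in opposite directions at different times. How many of all rows followed each pattern was not counted, so these counts do not set the members apart. As a share of all FPKM in a library, the 81 rows made up 0.715 and 0.736% at 0 h, then 0.891 and 0.91% at 24 h, then 0.811 and 0.825% at 48 h and finally 0.694 and 0.679% at 72 h, so this share was highest at 24 h and lowest at 72 h in both libraries. The summed FPKM of the rows did not rise in this way. It was 3207 and 3329 at 0 h, then 3342 and 3174 at 24 h. Sums of 2548 and 2625 at 48 h and 2439 and 2404 at 72 h followed. The total FPKM of the libraries was lower at each later time than at 0 h, which raised the share.

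Of the HSP70 family, Hspa1b, a stress-inducible cytosolic HSP70, had the largest rise of any member at 24 h. Its row had 1.97 and 2.60 FPKM at 0 h, then 34.8 and 32.2 at 24 h, then 13.9 and 14.9 at 48 h and finally 18.8 and 20.2 at 72 h. Both libraries of every later time lay above both at 0 h, and the duplicates of each time lay close together. On the log2(FPKM + 1) scale the difference from 0 h was 3.40 ± 0.10 at 24 h (SE, adjusted p = 8.29e-08), 2.23 at 48 h (2.09e-07) and 2.64 at 72 h (5.58e-08). The 24 h peak stood apart from the later times, since 48 h was lower than 24 h by -1.16 (adjusted p = 0.000157) and 72 h lower than 24 h by -0.75 (0.000295). The row (mm10 chr17:34957073-34972156, minus strand) spans Hspa1a as well as Hspa1b, so it does not separate the pair, and Hspa1a has no row of its own. It also overlaps the rows of Hspa1l, H2-T22 and an unannotated locus. How reads were shared between these rows is not known, so its values cannot be assigned to the pair alone.

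The neighbouring Hspa1l, a gene for an HSP70 known from testis, had 2.88 and 3.48 FPKM at 0 h, then 9.28 and 9.60 at 24 h, then 5.44 and 4.94 at 48 h and finally 6.38 and 7.19 at 72 h. Its differences from 0 h of 1.32, 0.57 and 0.90 passed the test at each time, but the row also covers Hspa1a and Lsm2 and overlaps the Hspa1b row, so its reads cannot be assigned to Hspa1l alone.

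Hspa8, the constitutive cytosolic HSP70 (HSC70) that also uncoats clathrin vesicles, was the member with the highest FPKM at 0 h and moved the other way. Its row (mm10 chr9:40798827-40816043, plus strand), which runs past the gene, had 603 and 635 FPKM at 0 h, then 388 and 371 at 24 h, then 231 and 265 at 48 h and finally 289 and 287 at 72 h. Every later library was below both at 0 h, and the lowest pair was that of 48 h. The difference was -0.71 ± 0.08 at 24 h, -1.32 at 48 h and -1.10 at 72 h (SE of each 0.0752, adjusted p = 4.3e-05, 6.38e-07 and 1.64e-06), and it kept its direction and call under every alternative run for these comparisons with 0 h. The row was not in the fit of rows that keep to their own gene.

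The FPKM of the Hspa1b row relative to that of Hspa8 was 0.00327 and 0.00409 at 0 h, then 0.0898 and 0.0868 at 24 h, then 0.06 and 0.0563 at 48 h and finally 0.065 and 0.0703 at 72 h. The inducible form remained far below the constitutive one in every library, and the ratio, which a single scaling factor per library cannot change, was higher in every library after cisplatin than at 0 h.

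Of the other HSP70 and HSP110 members, Hsph1 (HSP110, a nucleotide exchange factor of HSP70) rose early and fell late. It had 6.53 and 7.52 FPKM at 0 h, then 10.3 and 9.64 at 24 h, then 7.96 and 7.43 at 48 h and finally 5.10 and 5.31 at 72 h. The 24 h pair lay above and the 72 h pair below both libraries at 0 h, with differences of 0.46 (adjusted p = 0.00198) and -0.37 (0.00588), of which the later one no longer passed with equal totals apart from mitochondrially encoded rows. Hspa12b, an HSP70-like protein known from endothelium, was higher at all 3 times (0.57, 0.28 and 0.64), the 48 h call being lost in 7 of the alternatives. Hspa12a, its neuronal relative, was lower (-0.32, -0.48 and -0.50), with the 24 h call lost in 3 alternatives and the 48 h call in 1. Hspa4 and Hspa13 passed the test at no time, with Hspa4 between 46.9 and 59.3 FPKM in all 8 libraries. Hspa4l was lower at 24 and 48 h (-0.33 and -0.52), calls lost in 4 alternatives and in 1, and stood at -0.07 at 72 h. The genes Hspa2, Hspa9 and Hspa14 were not analysed here.

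Among HSP90 genes the inducible and the constitutive cytosolic forms also separated. Hsp90aa1, the inducible form, had 108 and 115 FPKM at 0 h, then 269 and 324 at 24 h, then 247 and 269 at 48 h and finally 182 and 176 at 72 h. All later libraries were above 0 h, with the 72 h pair in between. Its differences from 0 h were 1.39 ± 0.09 at 24 h (SE, adjusted p = 2.81e-06), 1.20 at 48 h (3.8e-06) and 0.67 at 72 h (0.000155), and 72 h was lower than 48 h by -0.52 (0.00175). The row also spans 1700001K19Rik.

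Hsp90ab1, the constitutive form, had 391 and 390 FPKM at 0 h, then 387 and 364 at 24 h, then 300.1 and 266 at 48 h and finally 268 and 254 at 72 h. The 24 h libraries lay just below those of 0 h and the later ones clearly below, with differences of -0.06 (adjusted p = 0.503), -0.47 (0.000397) and -0.58 (9.66e-05). The 48 h call was lost with quantile normalization and with equal totals apart from mitochondrially encoded rows (-0.03 at the nearest to 0), and with the second of these the 24 h value turned to 0.18. The ratio of Hsp90aa1 to Hsp90ab1 was 0.278 and 0.295 at 0 h, then 0.696 and 0.89 at 24 h, then 0.824 and 1.01 at 48 h and finally 0.68 and 0.692 at 72 h. In 1 library at 48 h the inducible form therefore reached the level of the constitutive one.

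**Figure D2:**
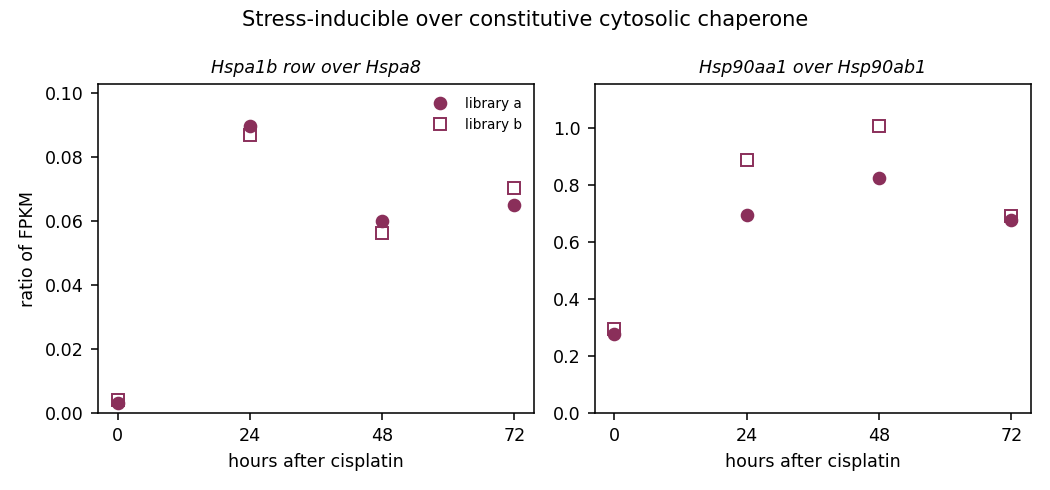
Points give the ratio of FPKM within each library against hours after cisplatin, for the Hspa1b row (which also spans Hspa1a) over Hspa8 on the left and Hsp90aa1 over Hsp90ab1 on the right; filled circles are library a and open squares library b of a time. In both panels the 2 points at 0 h are the lowest, at 0.00327 and 0.00409 on the left and 0.278 and 0.295 on the right.

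Of the small heat shock proteins, Hspb1 and Hspb8 rose at all 3 times from low levels. Among the 4 tested, 2 were higher at 24 and 48 h and 3 at 72 h, and none was lower. Hspb1 (HSP25, an ATP-independent holdase that binds actin filaments; mm10 chr5:135887386-135890165, plus strand) had 1.84 and 2.87 FPKM at 0 h, then 33.8 and 16.6 at 24 h, then 19.5 and 22.8 at 48 h and finally 35.8 and 27.8 at 72 h. No library after cisplatin overlapped with 0 h, although the 24 h duplicates differed by 2.04-fold. Its differences were 2.90 ± 0.37 at 24 h (SE, adjusted p = 0.00142), 2.74 at 48 h (0.00156) and 3.30 at 72 h (0.000737), the largest of any member at 72 h, and no pair of the later times differed by the test (adjusted p = 0.787 for 48 over 24 h, 0.27 for 72 over 48 h and 0.407 for 72 over 24 h).

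Hspb8, which works with Bag3 in clearing misfolded proteins, had 1.80 and 1.96 FPKM at 0 h, then 5.67 and 5.97 at 24 h, then 4.73 and 4.91 at 48 h and finally 6.30 and 7.08 at 72 h. Its differences were 1.25, 1.02 and 1.42 (SE of each 0.0915, adjusted p = 5.04e-06, 1.07e-05 and 1.17e-06). Hspb6, a muscle small heat shock protein, passed only at 72 h (0.44, adjusted p = 0.0426), and that call was lost in 10 alternatives. Hspb11, better known as an intraflagellar transport protein, lay between 3.29 and 4.32 FPKM throughout and passed at no time. Cryab, the lens and muscle small heat shock protein αB-crystallin, falls outside the symbol rule. Its row, which also spans Hspb2, had 22.4 and 20.7 FPKM at 0 h, then 43.3 and 38.6 at 24 h, then 50.5 and 46.0 at 48 h and finally 116 and 120.0 at 72 h, with differences of 0.90, 1.13 and 2.40 that passed at each time.

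Markers of smooth muscle and pericytes moved with these genes. Their summed FPKM was 28.4 to 34.2 at 0 h, 72.2 to 84.4 at 24 h, 75.8 to 81.0 at 48 h and 92.9 to 94.1 at 72 h, and 5, 3 and 5 of 6 tested markers were higher at the 3 times, none lower, with Ren1 and Acta2 the most abundant. None of the 7 markers with a row was at 0 in all libraries. Their part in the rises of Hspb1, Hspb8 and Cryab was not tested. Endothelial markers, which bear on Hspa12b, summed to 91.3 to 93.9 FPKM at 0 h and 196 to 203 at 72 h, and 3, 4 and 8 of 8 were higher and 1, 1 and 0 lower at 24, 48 and 72 h. Their part in the Hspa12b result was likewise not tested.

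HSF1 itself did not rise. Hsf1 had 5.14 and 5.14 FPKM at 0 h, then 3.83 and 3.73 at 24 h, then 4.07 and 3.57 at 48 h and finally 4.73 and 5.07 at 72 h. The 24 and 48 h libraries lay below 0 h, by -0.36 (adjusted p = 0.00652) and -0.35 (0.00682), but with equal totals apart from mitochondrially encoded rows the 24 h call was lost and the 48 h value turned to 0.0061. Hsf2, between 3.29 and 4.90 FPKM, passed at no time. HSF1 acts mainly through its own activation, which RNA levels do not measure. Of 12 tested genes in a list of classic HSF1-driven genes, 7 were higher and 2 lower at 24 h, then 6 and 4 at 48 h and finally 6 and 4 at 72 h, with median differences of 0.98, 0.63 and 0.46 beside -0.12, -0.13 and 0.07 for all rows. All 12 are members, so the list restates them.

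**Figure D3:**
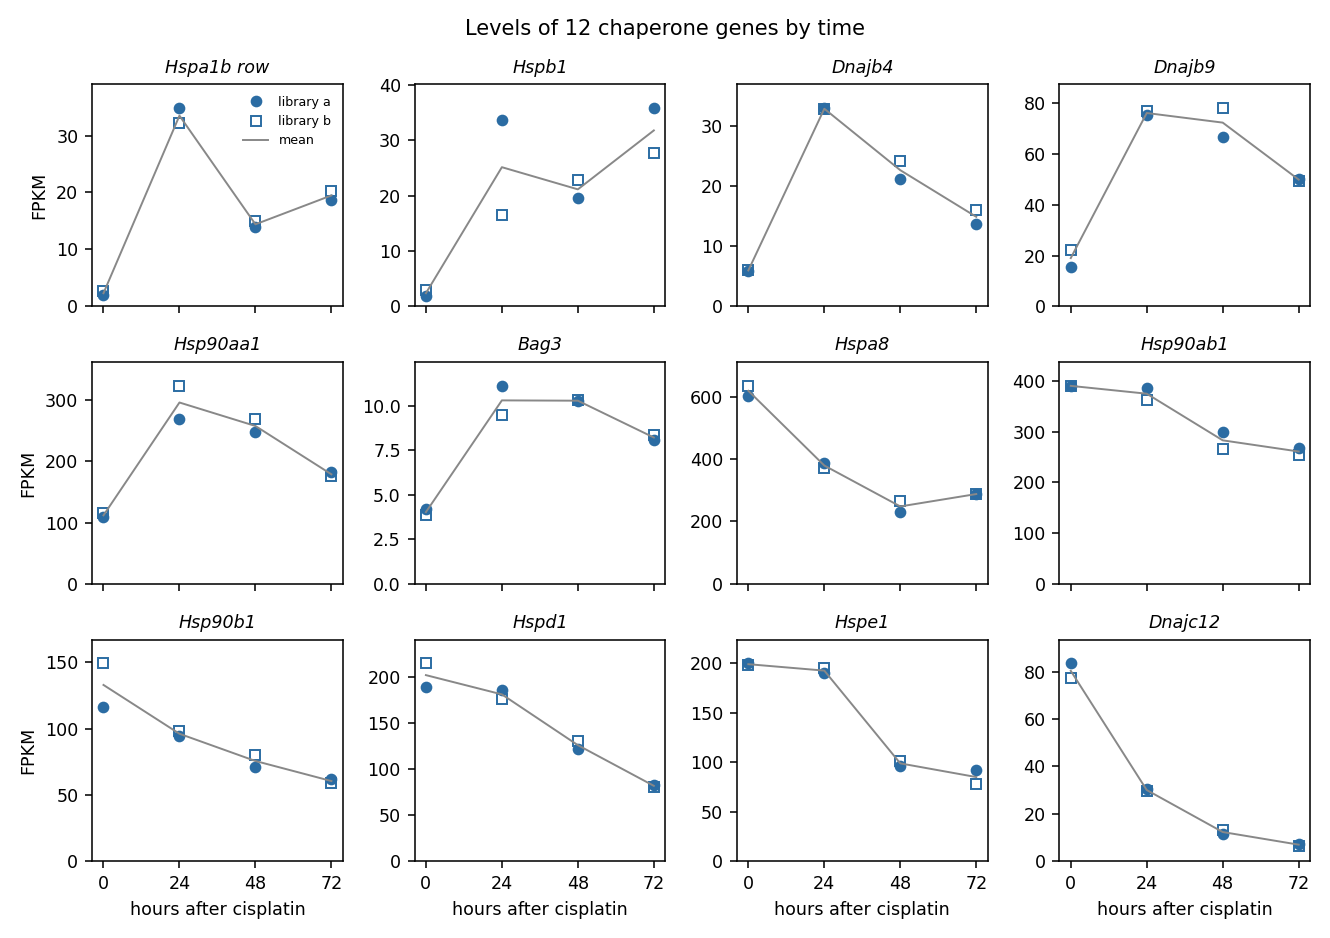
FPKM of 12 chaperone genes against hours after cisplatin; filled circles are library a, open squares library b, and the line joins the means of the 2 libraries at each time. The Hspa1b row (which also spans Hspa1a), Hspb1, Dnajb4, Dnajb9, Hsp90aa1 and Bag3 lie above their 0 h points at all later times, while Hspa8, Hsp90b1 and Dnajc12 lie below them. Hspe1 stays near its 0 h level at 24 h and is lower at 48 and 72 h.

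Of the J proteins, which deliver clients to HSP70 and set off its ATPase, the cytosolic Dnajb4 had the largest rise at 24 h and the ER member Dnajb9, described with the ER genes, the largest at 48 and 72 h. Dnajb4 had 5.85 and 6.08 FPKM at 0 h, then 33.0 and 32.8 at 24 h, then 21.2 and 24.2 at 48 h and finally 13.7 and 16.1 at 72 h. The pairs of the 4 times did not overlap and declined in order after 24 h, and each later pair differed by the test (-0.52 for 48 over 24 h, adjusted p = 0.00451, and -0.58 for 72 over 48 h, 0.00133). Over 0 h its differences were 2.28 ± 0.09, 1.76 and 1.19 (SE, adjusted p = 3.02e-07, 4.68e-07 and 4.63e-06).

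Dnajb1, the main HSP40 partner of the inducible HSP70, had 8.75 and 8.82 FPKM at 0 h, then 21.1 and 19.7 at 24 h, then 14.4 and 13.7 at 48 h and finally 14.1 and 13.7 at 72 h. It was highest at 24 h and about level at 48 and 72 h, with differences of 1.13, 0.62 and 0.61 over 0 h, each with an adjusted p below 0.0001. Dnajb5 stood at 0.05 at 24 h (adjusted p = 0.714) and was higher later, by 0.73 at 48 h and 0.96 at 72 h. Smaller rises at all 3 times were those of Dnaja2 (0.35, 0.48 and 0.44), Dnajb2 (0.49, 0.39 and 0.29, the last call lost in 6 alternatives and the one before in 1), Dnajc5, the cysteine string protein of secretory vesicles (0.38, 0.56 and 0.73), and the spliceosome-associated Dnajc8 (0.72, 0.76 and 0.68). The Dnajc5 row also spans Tpd52l2. Dnajc2, a J protein of the ribosome, was higher at 24 h (0.48) and stood at 0.13 and -0.04 later, the 48 h value passing under each of the 3 other scalings.

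In the promoter classes, 14 members with an inverted GAA pair were tested, and 7, 6 and 7 of them were higher and 0, 2 and 4 lower at 24, 48 and 72 h. Of 42 tested members with a window and no pair, 14, 12 and 13 were higher and 14, 18 and 14 lower. Over all rows 25.8, 28.5 and 37.6% were higher and 40, 42.1 and 32.4% lower. Calls among all genes with a pair were not counted, and the part of the pair in these splits was not tested. On the deposited scale the 3 genes with 3 units were higher at no time, and Dnajb6, Hspd1 and Hspe1 were all lower at 72 h. With quantile normalization all 3 were called higher at 24 h. Dnajb6 was also called higher at 48 h with that scaling and with equal totals apart from mitochondrially encoded rows. Its 72 h call did not hold in every alternative. A window holding Hsp90aa1 was not found, and Dnajb1 had no match in its windows.

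The Bag proteins, which release clients from HSP70, took separate courses. Bag3, the stress-inducible one that directs clients to selective autophagy, had 4.18 and 3.86 FPKM at 0 h, then 11.1 and 9.48 at 24 h, then 10.3 and 10.3 at 48 h and finally 8.08 and 8.35 at 72 h. All later libraries lay above 0 h, by 1.17, 1.17 and 0.88 (SE of each 0.0927, adjusted p = 7.84e-06, 4.76e-06 and 2.98e-05). Bag5 was higher by 0.86, 0.71 and 0.35, of which the last call was lost in 5 alternatives. Bag6, which guides tail-anchored proteins, was lower by -0.46, -0.59 and -0.35, the last call being lost in 2 alternatives, from a row that also spans Gpank1 and D17H6S53E.

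Bag2, an inhibitor of the ubiquitin ligase CHIP, had 6.60 and 6.42 FPKM at 0 h, then 5.64 and 4.91 at 24 h, then 7.68 and 7.47 at 48 h and finally 14.0 and 15.3 at 72 h. It was the only Bag gene highest at 72 h in both libraries, by 1.06 over 0 h (adjusted p = 6.86e-06), and its small decrease at 24 h (-0.26, 0.0287) was lost in 7 alternatives. Bag1 and Bag4 passed at no time, and the Bag1 duplicates differed by up to 1.64-fold.

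The tested subunits of the TRiC ring, which folds actin and tubulin, rose together. All 6 were higher at 24 h and 4 of 6 at 48 and 72 h, and none was lower, with medians of 0.46, 0.40 and 0.34 beside -0.12, -0.13 and 0.07 for all rows. Over all rows 25.8, 28.5 and 37.6% were higher and 40, 42.1 and 32.4% lower. With all libraries scaled to a common median 1 subunit, Cct8, was lower at 72 h, and with quantile normalization it was higher by 0.22. Cct2 had 56.9 and 58.6 FPKM at 0 h, then 92.9 and 80.9 at 24 h, then 90.5 and 90.3 at 48 h and finally 82.0 and 76.5 at 72 h, and its differences of 0.58, 0.64 and 0.45 passed at each time. Cct4, whose row also spans Zrsr1, changed by 0.83, 0.57 and 0.32. Cct7 changed by 0.28, 0.27 and 0.35, and Cct5 by 0.55, 0.52 and 0.53, the Cct5 calls each being lost without its lower 0 h library (0.33, 0.30 and 0.31) and in 2 or 3 other alternatives. Cct3 and Cct8 passed at 24 h only (0.19 and 0.36), and the Cct3 call was lost in 8 alternatives. Cct6a has no row and was not analysed here. The symbol rule takes only subunits named Cct2 to Cct8, so the values do not cover the whole ring.

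Genes that work with TRiC moved with it. Of 9 tested genes of the prefoldin complex and other TRiC partners, 8 were higher and 1 lower at 24 h, then 6 and 0 at 48 h and finally 5 and 0 at 72 h, with medians of 0.48, 0.54 and 0.28. Over all rows 25.8, 28.5 and 37.6% were higher and 40, 42.1 and 32.4% lower, with medians of -0.12, -0.13 and 0.07. Vbp1, a prefoldin subunit, had 9.67 and 11.6 FPKM at 0 h, then 25.1 and 25.7 at 24 h, then 23.7 and 22.9 at 48 h and finally 17.1 and 16.4 at 72 h, the largest difference of the list at 24 h (1.19, adjusted p = 5.66e-06). Pfdn4, another prefoldin subunit, was higher by 0.91, 0.76 and 0.69, and Pdcl, a phosducin-like TRiC cofactor, by 0.63, 0.68 and 0.58.

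Most ER members were lower at 48 and 72 h, while Dnajb9 and Dnajc10 were higher at all 3 times. Of 12 tested members of the ER, 3 were higher and 6 lower at 24 h, then 2 and 8 at 48 h and finally 2 and 7 at 72 h, with medians of -0.26, -0.73 and -0.58 beside -0.12, -0.13 and 0.07 for all rows. These medians and each count of lower members include the row named Dnajc3, which spans several genes and cannot be read as Dnajc3. Over all rows 25.8, 28.5 and 37.6% were higher and 40, 42.1 and 32.4% lower, so the 24 h split lay near that of all rows. Under the other scalings the 24 h count was 4 higher and 3 to 5 lower, and those at 48 and 72 h were 2 to 4 higher and 6 to 8 lower. Hsp90b1 (GRP94, the ER HSP90) had 117 and 149 FPKM at 0 h, then 94.2 and 98.0 at 24 h, then 71.0 and 80.2 at 48 h and finally 61.7 and 59.3 at 72 h. No later library reached the level of 0 h. The differences were -0.45 (adjusted p = 0.0061), -0.80 (0.000191) and -1.11 (2.24e-05), of which the first 2 were no longer called with quantile normalization and the first also not with equal totals apart from mitochondrially encoded rows.

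Hspa5 (BiP, the ER HSP70 and the usual marker of the unfolded protein response) had 161 and 185 FPKM at 0 h, then 215 and 196 at 24 h, then 165 and 168 at 48 h and finally 157 and 148 at 72 h. The 24 h pair was above 0 h by 0.25 (adjusted p = 0.0237), a call that was lost in 4 alternatives, among them leaving out a single library of 0 or 24 h. At 48 and 72 h it stood at -0.05 (0.607) and -0.18 (0.078), and with quantile normalization these values turned to 0.59 and 0.40 and passed as higher, so its direction at the later times cannot be stated.

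Dnajb9 (ERdj4, a BiP cochaperone and a target of the unfolded protein response factor XBP1), from a row that runs past the gene, had 15.6 and 22.4 FPKM at 0 h, then 75.2 and 77.1 at 24 h, then 66.7 and 78.1 at 48 h and finally 50.3 and 49.5 at 72 h. It rose by 1.97 ± 0.15 at 24 h, 1.89 at 48 h and 1.37 at 72 h (SE, adjusted p = 1.47e-05, 1.23e-05 and 7.89e-05), in every alternative run. The fit of rows that keep to their own gene did not hold it. Dnajc10 (ERdj5, a disulfide reductase) was the only other ER J protein to rise at all 3 times, by 0.25, 0.32 and 0.44, the first of these lost in 7 alternatives. Dnajb12, an ER membrane J protein, had 15.4 and 15.4 FPKM at 0 h, then 6.77 and 6.04 at 24 h, then 5.45 and 5.27 at 48 h and finally 6.71 and 6.61 at 72 h, and it fell by 1.15, 1.36 and 1.10 on the log2 scale. Dnajc16 and Dnajb14 were also lower at all 3 times, with the 24 h call of Dnajb14 lost in 1 alternative. The row named Dnajc3 spans several genes over a long stretch of chromosome 14, so its lower values (-0.78, -1.27 and -1.19) cannot be read as those of Dnajc3 (p58IPK).

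Other ER folding and quality control genes showed the same direction. Of 18 tested, 1 was higher and 12 lower at 24 h, then 1 and 15 at 48 h and finally 2 and 12 at 72 h, with medians of -0.54, -0.56 and -0.57. Over all rows 25.8, 28.5 and 37.6% were higher and 40, 42.1 and 32.4% lower, with medians of -0.12, -0.13 and 0.07. With quantile normalization the counts for the 18 genes were 4 higher and 8 lower, 2 and 10, and 2 and 8. Sil1, the nucleotide exchange factor of BiP, had 54.1 and 56.7 FPKM at 0 h, then 16.4 and 12.9 at 24 h, then 8.38 and 8.14 at 48 h and finally 12.4 and 10.3 at 72 h, the largest decrease of the list, at -1.86, -2.61 and -2.20. Herpud1, an ER-associated degradation factor, was at -1.15, -2.07 and -1.72, and Pdia4, a disulfide isomerase, at -0.94, -1.10 and -0.66.

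Mitochondrial chaperones were lower mainly from 48 h on. On the deposited scale no mitochondrial member was called higher than at 0 h at any time. Of 9 tested, 3 were lower at 24 h, 8 at 48 h and 7 at 72 h, with medians of -0.23, -0.67 and -0.69 beside -0.12, -0.13 and 0.07 for all rows. The share lower at 24 h was below the 40% of all rows, and those at 48 and 72 h were above the 42.1% and 32.4% of all rows. Quantile normalization gave 2 higher and 2 lower at 24 h, then 0 and 6 at 48 h and finally 0 and 8 at 72 h, and equal totals apart from mitochondrially encoded rows 1 and 3, 0 and 5, and 0 and 7. Hspd1 (HSP60, the mitochondrial chaperonin ring) had 189 and 214 FPKM at 0 h, then 186 and 176 at 24 h, then 122 and 130.0 at 48 h and finally 83.0 and 80.4 at 72 h. The difference was -0.15 at 24 h (adjusted p = 0.108), -0.67 at 48 h (5.06e-05) and -1.29 at 72 h (7.13e-07), and each later pair differed by the test (-0.52 for 48 over 24 h and -0.62 for 72 over 48 h). Under quantile normalization its 24 h value was 0.20 and called higher, and the 48 h call was lost.

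Hspe1 (HSP10, the lid of that ring) had 199.8 and 198 FPKM at 0 h, then 189.8 and 195 at 24 h, then 96.5 and 101 at 48 h and finally 91.8 and 78.2 at 72 h. The first 2 pairs lay close together and the last 2 at less, with differences of -0.05 (adjusted p = 0.618), -1.0 (4.85e-06) and -1.22 (1.25e-06), and 0.28 at 24 h with quantile normalization. Most of its decrease fell between 24 and 48 h (-0.95, adjusted p = 0.000109). The rows of Hspd1 (mm10 chr1:55074116-55089083, minus strand) and Hspe1 (chr1:55087303-55091192, plus strand) overlap at their shared start, and no source used here says whether strand was used in counting. The ratio of Hspd1 to Hspe1 stayed between 0.901 and 1.29 in all 8 libraries.

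Of the mitochondrial J proteins, Dnajc19, of the inner membrane import motor, was lower by -0.69, -1.41 and -1.26. Dnajc11, of the outer membrane and cristae junctions, was at -0.71, -0.93 and -0.54, and Dnaja3 (TID1, a matrix J protein) at -0.40, -0.42 and -0.69, the 48 h value of Dnaja3 turning to 0.00 and 0.01 with quantile normalization and with equal totals apart from mitochondrially encoded rows. Among 10 other mitochondrial protein quality control genes, 8, 10 and 7 were lower and none higher, with medians of -0.41, -0.69 and -0.67. Over all rows 40, 42.1 and 32.4% were lower and 25.8, 28.5 and 37.6% higher, with medians of -0.12, -0.13 and 0.07. Quantile normalization gave 2 of the 10 genes as higher at each time. Trap1, the mitochondrial HSP90, had 80.0 and 81.9 FPKM at 0 h, then 38.2 and 31.9 at 24 h, then 27.7 and 29.0 at 48 h and finally 26.2 and 22.7 at 72 h, with differences of -1.19, -1.48 and -1.69. The Clpx protease subunit was at -0.83, -1.31 and -1.71.

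**Figure D4:**
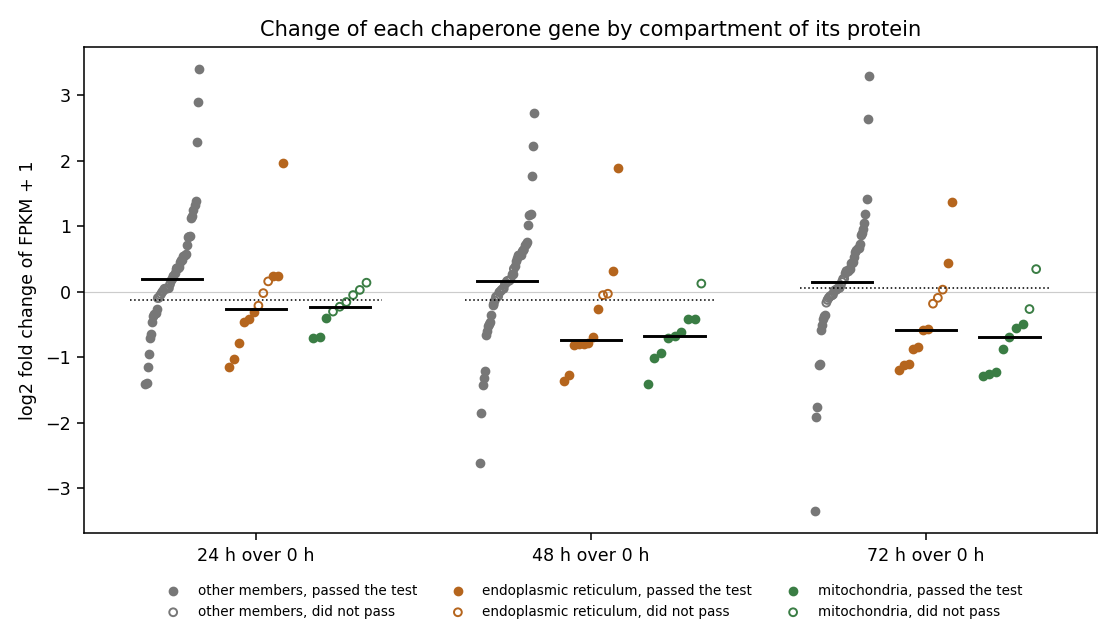
Each point is 1 tested chaperone gene, placed by its log2 fold change of FPKM + 1 at 24, 48 and 72 h over 0 h and by the compartment of its protein (ER brown, mitochondria green, all other members grey); filled points passed the limma test, thick bars are medians and dotted lines the median of all rows tested. At 48 h the medians are 0.17 for other members, -0.73 for the ER and -0.67 for mitochondria, and the high ER point is Dnajb9. The ER points include the row named Dnajc3, which spans several genes.

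Of all members, Dnajc12 and Dnajc6 had the largest decreases at 24 and 48 h, and Dnajc12 and Dnajc22 at 72 h. Dnajc12, a cochaperone of the aromatic amino acid hydroxylases, had 83.5 and 77.1 FPKM at 0 h, then 30.5 and 29.6 at 24 h, then 11.5 and 13.2 at 48 h and finally 7.45 and 6.58 at 72 h. The 4 pairs did not overlap and each was lower than the one before, and the differences from 0 h were -1.39 ± 0.09, -2.61 and -3.34 (SE, adjusted p = 2.76e-06, 4.99e-08 and 7.43e-09). Dnajc22 had 48.0 and 50.4 FPKM at 0 h, then 26.2 and 24.0 at 24 h, then 17.0 and 18.4 at 48 h and finally 13.2 and 11.7 at 72 h, also in falling order, at -0.94, -1.43 and -1.91. Dnajc6 (auxilin, which uncoats clathrin vesicles with Hspa8) was at -1.41, -1.86 and -1.76 and at 0.935 to 1.84 FPKM in all libraries after cisplatin. Dnajc13 (RME-8, an endosomal J protein) was at -1.14, -1.21 and -1.11.

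Markers of the proximal tubule fell alongside. At 0 h all 10 were detected, with a summed FPKM of 6366 to 6965, so RNA of the labelled cell type was present, and the sum was 3015 to 3443 at 24 h, 1979 to 2053 at 48 h and 767 to 779 at 72 h. Of the 10, 9, 10 and 10 were lower at the 3 times and none higher, with Acsm2 and Lrp2 the most abundant. The part of the proximal tubule content in the decreases of Dnajc12, Dnajc22 and the mitochondrial chaperones was not tested. All 6 tested thick ascending limb markers were lower at each time as well. Sums of 6 tested and 2 untested neutrophil markers were 1.08 to 1.30 FPKM at 0 h and 27.0 to 28.7, 26.8 to 32.5 and 75.4 to 78.0 at 24, 48 and 72 h, and macrophage markers summed to 52.5 to 58.8 FPKM at 0 h and 208 to 217 at 72 h. Podocyte markers were higher in 4, 6 and 6 of 8 and lower in 1 of 8 at each time. The part of these cells in the rises was not tested.

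Between 24 and 48 h more members declined than rose, and most passed the test in neither direction. At 48 h over 24 h, 2 of 70 were higher and 23 lower, 35.7% against a background of 28.3% (11.2% higher, 17.2% lower), with a median of -0.19 beside -0.03 for all rows. The rises were Bag2 (0.45) and Dnajb5 (0.67), and the largest decreases were Dnajc12 (-1.22), Hspa1b (-1.16) and Hspe1 (-0.95). With quantile normalization the split was 7 higher and 19 lower, and with equal totals apart from mitochondrially encoded rows 8 and 14.

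At 72 h over 48 h, 14 were higher and 14 lower, 40% against 48.4% (37.2% higher, 11.3% lower), but with all libraries scaled to a common median 2 were higher and 27 lower. That scaling put the median of all rows at -0.01, where it stood at 0.18 on the deposited scale. Without 1 of the 48 or 72 h libraries 12 to 17 members were called. Bag2 (0.87) and Dnajc24 (0.67) were the rises kept by every alternative that held their rows. Neither row keeps to its own gene, so the fit of rows that do held neither, and Dnajc24 was also below the filter at 5 FPKM.

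At 72 h over 24 h, 6 were higher and 28 lower, 48.6% against 57.4% (37.7% higher, 19.8% lower), with a median of -0.16 beside 0.14 for all rows, and the lower members outnumbered the higher ones under each scaling. The decreases kept by every alternative that held their rows numbered 22. They included Hspa1b, Dnajb1, Dnajb4, Hsp90aa1 and Hsph1 as well as Hspd1 and Hspe1. The rows of Hspa1b, Hsp90aa1, Hsph1 and Hspd1 were not in the fit of rows that keep to their own gene.

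Cochaperones of HSP90 and HSP70 outside the symbol rule were divided. Of 15 tested, 5 were higher and 2 lower at 24 h, then 5 and 3 at 48 h and finally 5 and 3 at 72 h, beside 25.8, 28.5 and 37.6% higher and 40, 42.1 and 32.4% lower over all rows. Quantile normalization gave 6 and 0, 8 and 0, and 5 and 2. Ppid (cyclophilin 40) had 10.3 and 9.73 FPKM at 0 h, then 22.2 and 20.9 at 24 h, then 19.4 and 21.1 at 48 h and finally 15.5 and 13.0 at 72 h, with differences of 1.04, 0.95 and 0.47. Fkbp5, an HSP90 cochaperone of steroid receptors, was near 0 h at 24 h (-0.10) and had 42.5 and 40.6 FPKM at 72 h, against 12.2 and 13.8 at 0 h (1.61, adjusted p = 3.55e-07). St13 (HIP) was lower at all 3 times (-0.35, -0.42 and -0.61), and Ahsa1, the HSP90 ATPase activator, was higher at 24 h (0.31) and lower at 72 h (-0.37).

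The remaining members gave less certain values. Of the 70 tested, 10 had duplicates that differed by more than 1.5-fold at some time and 6 by more than 2-fold. Dnaja1, a main cytosolic J protein, was the extreme, with 0.806 and 4.11 FPKM at 0 h, then 9.30 and 1.87 at 24 h, then 3.0 and 4.62 at 48 h and finally 4.06 and 1.83 at 72 h, and it passed at no time. Rows were read against RefSeq spans with a margin of 2000 bases. Of the 81 rows, 12 spanned another protein-coding gene that had no row of its own. Of the others, 49 kept to the span of their own gene and 20 ran past it. In all, 58 of the 81 overlapped another row. Among the 41 tested rows that kept to their own gene, 24, 27 and 27 were called at 24, 48 and 72 h.

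Few circular RNAs lay in chaperone genes. Of 2163 circular RNAs in the deposited counts, 1872 lay within exactly 1 protein-coding gene, of which 1 lay in Dnajc8 and 1 in Hspd1. The share of all genes with a circular RNA was not counted, so this does not set the members apart. That of Dnajc8 (mm10 chr4:132544056-132550468) had 3 and 3 back-splice reads at 0 h, then 0 and 1 at 24 h, then 3 and 0 at 48 h and finally 3 and 2 at 72 h. It did not pass edgeR's quasi-likelihood test at any time (adjusted p = 0.617, 0.875 and 0.925, where 1.78%, 1.27% and 1.33% of 1574 tested were called), it had no unadjusted p below 0.05, and DESeq2 gave the same count of 0. That of Hspd1 had 6 reads in all and was not tested. The libraries held 13603 to 21024 circular reads each.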

How the data were processed

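Linear RNA values are FPKM as deposited by the authors, 1 row per gene and 1 column per library. Per the submitters' processing notes Bowtie 0.12.2, TopHat2 and Cufflinks were used with mm10, with no role or order given, and per the labels' protocols the kit was a small RNA kit. Circular RNA values are back-splice counts deposited by the authors, and 8 columns of normalized circular counts were not used. FPKM are relative to all fragments of a library and were not whole multiples of 1 fragment, so the depth of the linear data is unknown. Columns name time and a letter, so each was assigned to its time only.

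Symbols came from the reference gene table (19742 of 21874 rows). Values were tested as log2(FPKM + 1) with limma 3.58.1 (trend, robust) in R 4.3.3, 1 fit of 4 groups of 2, on 10757 rows reaching 1 FPKM in 2 or more of 8 libraries, with 2-sided p-values adjusted by Benjamini-Hochberg over all of them and a threshold of 0.05. Fold changes are on that scale and understate changes of low genes. Circular counts above 0 in at least 4 libraries were tested with edgeR 4.0.16, and with DESeq2 1.42.0 as an alternative. Both fits were also run on simulated data. The simulated linear data held far fewer changed rows than these data and no shift in library totals. They therefore do not check the calls under such shifts. No library stood apart: over tested rows, duplicates correlated at 0.989 to 0.994, above the highest value between times, 0.978. The deposited FPKM were used without rescaling. Library totals ran from 314173 to 452114 and followed time. Every 0 h total was 448667 or more, whereas no 48 h total exceeded 317983, with the remaining times in between. Differences from 0 h on this scale therefore include the shift in totals.

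The members and the gene lists were chosen with earlier results of these data known. The text names any member outside the J proteins, the J proteins with the 8 largest rises and decreases at each time, up to 4 genes a comparison of each other list, and the 2 most abundant markers of a cell type. J proteins named beyond these (Dnaja1, Dnaja3, Dnajb6, Dnajb11, Dnajb14 and others) were chosen after their values were seen. Alternatives were the pseudocount, filter, scaling, variance model, groups fitted, rows kept and each library left out. A member whose row an alternative did not hold was not judged under it. One scaling, equal totals apart from mitochondrially encoded rows, was added after seeing the data.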

Additional observations from a re-analysis of the deposited data

Results flagged for a closer look

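Bag2 was lower at 24 h (-0.26) and higher at 72 h (1.06) than at 0 h, and the difference between these times was itself past the test (1.32 for 72 h over 24 h on the log2 scale, adjusted p = 4.72e-06 in limma over all rows, 2 libraries each). Both 72 h libraries lay above both at 24 h, and the 24 h call alone was lost in 7 alternatives.

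Hsph1 was higher at 24 h (0.46) and lower at 72 h (-0.37) than at 0 h, and 72 h over 24 h was -0.82 (adjusted p = 8.16e-05 in limma over all rows). Both 72 h libraries lay below both at 24 h, and the difference kept its call under every alternative run. The row runs past the gene and was not in the fit of rows that keep to their own gene.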

How the results depend on the processing

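The counts of members called at 24, 48 and 72 h over 0 h (45, 49 and 47 of 70) stayed within 1.5 times under the pseudocount of 0.1, the 2 other filters, the 3 other scalings, the plainer limma, fits of only the 2 groups compared and each library left out. With only rows that keep to their own gene, where fewer rows are tested, 24, 27 and 27 members were called, and 13, 12 and 16 for 48 over 24 h, 72 over 48 h and 72 over 24 h. Leaving out 1 library gave 40 to 45, 43 to 50 and 44 to 48 at the 3 times, 17 to 25 for 48 over 24 h, 12 to 30 for 72 over 48 h (28 in the full data) and 28 to 34 for 72 over 24 h; the cause was not tested. The count of circular RNAs called was 0 in each setting. No paired analysis was possible because the columns carry letters and not the labels' replicate numbers.

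Among members called in the full data or under the alternative, a direction turned under scalings and under no other alternative run; members called under neither (such as Dnaja1, Bag1 and Dnajc4 without 1 of the 24 h libraries) also changed sign. With quantile normalization they were, at 24 h over 0 h, 0.26 for Dnajc9, 0.20 for Hspd1, 0.24 for Dnajb6 and 0.28 for Hspe1, at 48 h 0.0030 for Dnaja3, 0.18 for Dnajc9, 0.59 for Hspa5 and 0.28 for Dnajb6, and at 72 h 0.24 for Hspa4, 0.22 for Cct8 and 0.40 for Hspa5. With it Cct7 was at 0.17 for 48 over 24 h, Dnajb14 at -0.026 for 72 over 48 h and Dnajc17 at -0.26 for 72 over 24 h. Equal totals apart from mitochondrially encoded rows gave 0.23 for Dnajc9, 0.18 for Hsp90ab1 and 0.20 for Dnajb6 at 24 h, 0.011 for Dnaja3, 0.22 for Dnajc9, 0.0061 for Hsf1, 0.11 for Dnajc1, 0.39 for Hspa5, 0.30 for Dnajb6, 0.36 for Hspa13 and 0.34 for Bag4 at 48 h, 0.23 for Hspa4 at 72 h and 0.19 for Cct7 at 48 over 24 h. The same median in every library gave -0.016 for Hspa8, -0.19 for Dnajc9 and -0.16 for Cct7 at 72 over 48 h, and -0.15 for Cct7 at 72 over 24 h.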
